A study of Mus musculus with 6 samples.

Results

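Chromatin accessibility was examined at 69 heat shock protein and DnaJ chaperone genes, out of 49366 genes with counts around their transcription start sites. These genes were chosen by symbol alone, as the Hsp90, Hspa, Hspb, Hspd1, Hsph1, Hspbp1, Dnaja, Dnajb and Dnajc genes without those named as pseudogenes. The assay was ATAC-seq, which marks open chromatin by the insertions of a transposase that carries sequencing adapters. Male C57BL/6J mice aged 8 weeks were injected in the gastrocnemius and tibialis anterior (TA) muscles with AAV6:Yap-shRNA, a vector for a short hairpin RNA against Yap. Muscles of the opposite limb were given AAV6:LacZ-shRNA, a control hairpin against a bacterial gene, so that all muscles carried a vector and a hairpin. After 28 days, 4 gastrocnemius and 4 TA muscles were pooled for each of the 3 replicates per group, and nuclei positive for PCM1, a perinuclear protein that marks myonuclei, were sorted. The Yap hairpin was cloned behind a CMV promoter, which is not restricted to muscle fibres. The p-values below measure the spread between these pools, and in pooled nuclei a lower count in every nucleus and fewer nuclei with the site open cannot be told apart.

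Molecular chaperones keep proteins folded and hold or refold those that are damaged. Hsp70 proteins bind exposed stretches of a client in a cycle driven by ATP, which DnaJ proteins start and nucleotide exchange factors such as the Hsp110 proteins reset. Hsp90 proteins act later, on nearly folded clients such as kinases and steroid receptors, and small heat shock proteins hold unfolded clients without ATP. Separate members serve the cytosol, the endoplasmic reticulum (ER) and mitochondria. In muscle, chaperones are known for maintaining the sarcomere, whose proteins work under repeated mechanical strain. Heat shock factors switch many of these genes on through the heat shock element, and the ER members respond to unfolded protein through the ER stress element.

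Accessibility was read from counts in promoter windows, each of which joins the stretches of 1 kb up and downstream of all transcript starts annotated for the gene. Window totals ran from 3326803 to 10319467 counts per library, with LacZ-shRNA replicates 1 and 2 the shallowest. LacZ-shRNA replicate 1 stood apart from the other controls, with the lowest control value in 51 of the 69 chaperone windows, and results without it are given where they differ. Levels are CPM, counts scaled to library size, after TMM scaling. Changes are log2 fold changes, Yap-shRNA over LacZ-shRNA, and SE stands for their standard error in edgeR's quasi-likelihood test. The window of Yap1, the targeted gene, held 12.1, 16.7 and 14.1 CPM in LacZ-shRNA and 14.7, 16.5 and 12.1 CPM in Yap-shRNA, with a log2 fold change of 0.04 (SE 0.18), and since a hairpin acts on RNA this value does not measure the knockdown. Windows of 12 muscle-fibre genes had a median level of 22.2 CPM per kb in LacZ-shRNA and 20.4 in Yap-shRNA. The medians in LacZ-shRNA were 5.2 CPM per kb for 7 leukocyte genes, 3.74 for 6 fibroblast genes, 5.10 for 6 endothelial genes and 8.16 for 3 satellite cell genes. Several of these windows, such as those of Ckm, Cd68, Col3a1 and Pecam1, overlap the window of another gene. So does that of Yap1, of which 45.2% is its own, and such windows are uncertain measures, as explained below. No marker window passed the threshold in edgeR's test, and at an unadjusted p under 0.05 there were 1 leukocyte and 2 fibroblast genes higher and 2 endothelial genes lower in Yap-shRNA. Their part in the values below was not tested.

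The windows of 38 chaperone genes were alone, and those of 31 overlapped the window of a neighbouring gene. Overlap matters because reads in ground shared by several genes were largely left out of the window counts. Where a peak lay wholly in a window's own ground, the window held a median of 1.82 times the peak's counts over 5381 genes, against 0.569 times over 2007 genes whose peak lay wholly in shared ground. The 31 overlapping windows are thus uncertain measures, and the peaks of accessible chromatin called by the authors were used beside them. Peaks and windows count in part the same reads of the same libraries, so they are not independent measures. Of the genes that fit the choice of symbols, Hspe1, Hspb2, Dnajc30 and Dnajb9 were not analysed here by window.

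Promoter sequences from RefSeq (GRCm38.p6), reaching from 250 bases before to 50 bases after a start, were matched for 57 of the 69 genes. The 74 sequences of these genes had a median GC content of 62.2%, against 52.7% over all 32841 promoters in the table. A heat shock element of 3 units (GAA and its complement TTC in alternation, with gaps of 2 bases, on either strand) was found in 5 of the 74 (6.76%), belonging to Hsph1, Hspd1 and Dnajb6, against 0.603% of all promoters. These 3 promoters are shown because they hold the longest run of the site to which heat shock factors bind, printed 5′ to 3′ on the gene's strand with the matched bases in capitals. For genes with several promoter sequences the one whose match lies nearest the start is printed. For Hspd1 (chr1:55087933-55088182, minus strand) and Dnajb6 (chr5:29735648-29735897, plus strand) the stretch is the 250 bases before the start. For Hsph1 (chr5:149636280-149636309, minus strand) the match lay 15 to 27 bases past the start, and only the 30 bases around it are given.
Hsph1: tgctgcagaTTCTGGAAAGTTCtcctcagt
Hspd1: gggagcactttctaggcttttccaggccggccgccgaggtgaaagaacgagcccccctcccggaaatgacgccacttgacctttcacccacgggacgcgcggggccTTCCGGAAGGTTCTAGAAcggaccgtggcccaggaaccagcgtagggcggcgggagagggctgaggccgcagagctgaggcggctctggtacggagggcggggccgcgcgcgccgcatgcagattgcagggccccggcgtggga
Dnajb6: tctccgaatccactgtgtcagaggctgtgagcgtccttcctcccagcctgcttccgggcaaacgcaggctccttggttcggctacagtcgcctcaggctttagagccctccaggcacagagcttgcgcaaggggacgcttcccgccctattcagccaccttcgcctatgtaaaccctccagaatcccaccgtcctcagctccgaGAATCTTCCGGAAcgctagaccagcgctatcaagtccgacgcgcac
The 2 matches of Hspd1 overlap, and the capitals cover both. All 3 sites lay inside a called promoter peak.

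The ER stress element (CCAAT and CCACG with a gap of 9 bases, on either strand) was found in 3 of the 74 promoters (4.05%), those of Hspa5, Hsp90b1 and Dnajc3, against 0.119% of all promoters. All 3 genes encode chaperones of the ER lumen, and the 250 bases before each start are shown for that reason. They lie at chr2:34771840-34772089 (plus strand), chr10:86705445-86705694 (minus strand) and chr14:118937682-118937931 (plus strand).
Hspa5: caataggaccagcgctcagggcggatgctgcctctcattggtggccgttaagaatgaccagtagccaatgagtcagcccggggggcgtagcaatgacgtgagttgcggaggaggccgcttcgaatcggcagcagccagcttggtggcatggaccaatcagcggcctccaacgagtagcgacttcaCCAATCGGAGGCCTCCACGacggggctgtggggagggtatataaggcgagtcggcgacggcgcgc
Hsp90b1: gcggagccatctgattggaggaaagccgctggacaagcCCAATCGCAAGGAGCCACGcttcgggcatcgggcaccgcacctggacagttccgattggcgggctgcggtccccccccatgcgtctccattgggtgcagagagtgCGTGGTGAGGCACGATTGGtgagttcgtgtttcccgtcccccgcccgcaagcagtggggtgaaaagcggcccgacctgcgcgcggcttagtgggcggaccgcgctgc
Dnajc3: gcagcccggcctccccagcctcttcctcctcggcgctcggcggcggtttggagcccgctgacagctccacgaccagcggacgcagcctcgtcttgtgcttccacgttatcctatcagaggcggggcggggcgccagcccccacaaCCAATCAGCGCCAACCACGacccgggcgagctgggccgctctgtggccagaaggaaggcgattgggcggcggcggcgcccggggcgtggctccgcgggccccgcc
The capitals mark 1 match in Hspa5 and Dnajc3 and 2 in Hsp90b1. Each was inside the promoter peak of its gene.

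A heat shock element of only 2 units (GAANNTTC or TTCNNGAA), which also lies inside every 3-unit site, was held by 17 of the 74 promoters (23.0%), from 15 genes, and by 15.1% of all promoters. Sites of 3 genes are shown as examples: Hspb1 (chr5:135887791-135887820, plus strand), Hspb8 (chr5:116422844-116422873, minus strand) and Hspa1a (chr17:34972242-34972271, minus strand). Dnaja1 and Hspb6, whose windows are also described below, hold such a site that is not printed. Of the 2 matches in the Hspb1 promoter only the first is shown.
Hspb1: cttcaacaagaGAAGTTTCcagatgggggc
Hspb8: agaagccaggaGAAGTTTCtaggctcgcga
Hspa1a: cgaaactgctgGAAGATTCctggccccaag
The same 30 bases occur at Hspa1b. The promoters of Hspa1a and Hspa1b were identical at 296 of 300 bases, so reads may have been divided uncertainly between these near-copies. A TATA box (TATAAA) was held by 5.41% of the chaperone promoters against 13.6% of all, a CCAAT box (CCAAT, also the start of the ER stress element) by 39.2% against 37.4%, and the TEAD motif (ACATTCC) by 4.05% against 3.84%. TEAD factors are the DNA-binding partners of Yap, and the genes with this motif were Dnajb5 and Dnajc7.

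No chaperone window was called different after knockdown of Yap. None passed the threshold of an adjusted p of 0.05 in edgeR's quasi-likelihood test (0 of 69, smallest adjusted p 0.946), where 0.0223% of all windows did. DESeq2 and the likelihood-ratio test also called 0 of the 69. At an unadjusted p under 0.05 there was 1 window higher (Hspb9) and there were 5 lower (Hspa8, Dnajc5b, Hspb1, Hsph1 and Hspb8), against 1.9% of all windows higher and 3.01% lower. The log2 fold change was above 0 for 28 genes and below 0 for 41, with a median of -0.02 against -0.01 over all windows. Leaving out each replicate in turn, the median of the 69 ran from -0.089 without LacZ-shRNA replicate 1 to 0.050 without LacZ-shRNA replicate 3. The quartiles lay at -0.14 and 0.09, close to the -0.16 and 0.12 of all windows, and the extremes were -0.45 (Dnajc5b) and 0.41 (Hspb9). Groups did not overlap in 1 window higher in Yap-shRNA (Dnajc22) and 3 lower (Hspa8, Hsph1 and Dnajc25), beside 5.31% of all windows higher and 4.79% lower. The 95% interval of the difference stayed within a 1.5-fold change in either direction for 54 of the 69 windows and within 2-fold for 67. The largest intervals belonged to overlapping windows with few counts.

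**Figure D1:**
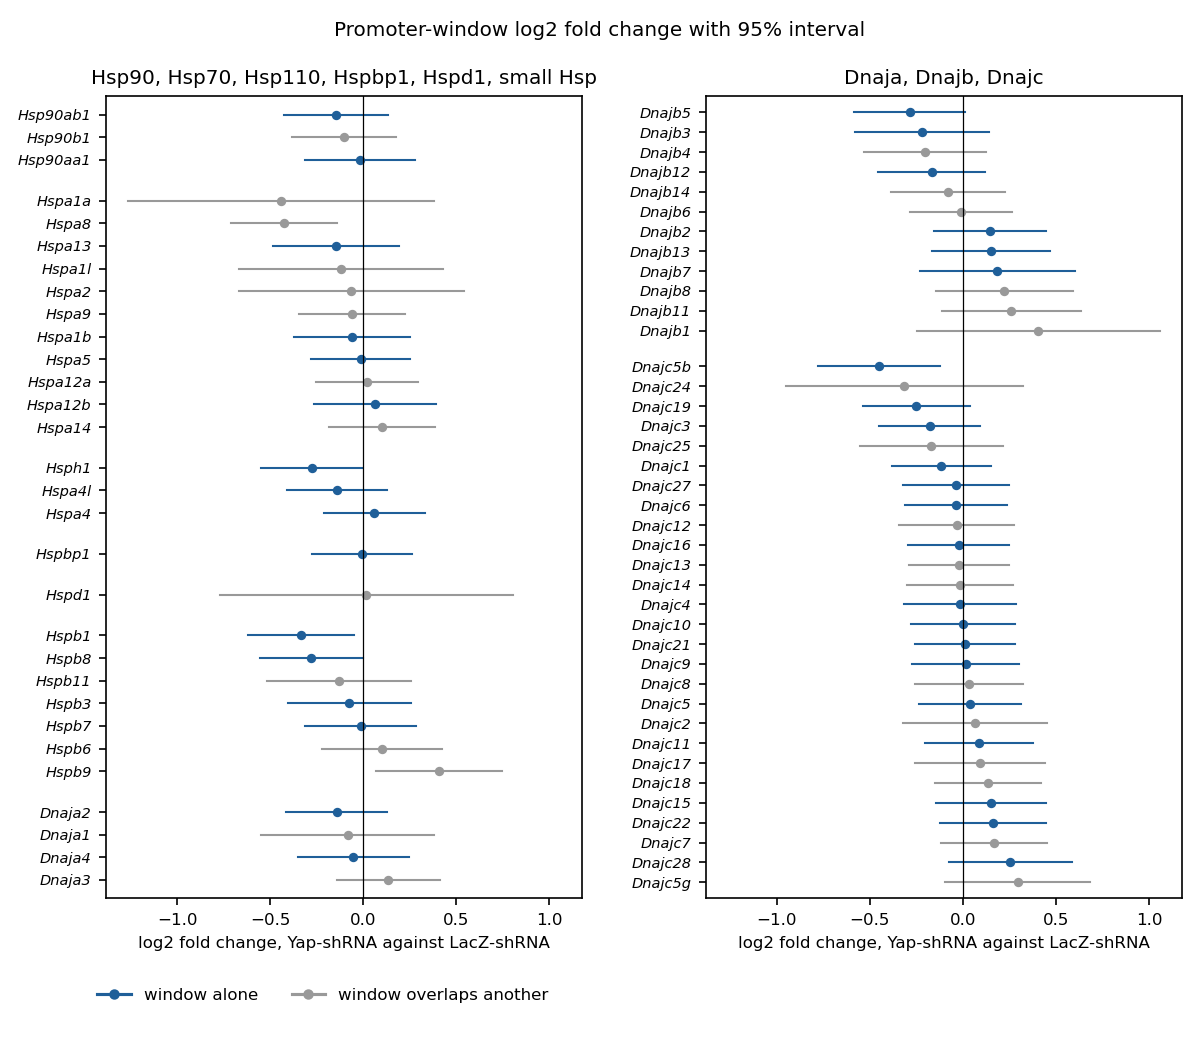
Log2 fold change of each of the 69 chaperone promoter windows, Yap-shRNA against LacZ-shRNA (x axis), with its 95% interval as a bar and genes grouped by family (y axis). Windows that were alone are blue and overlapping windows are grey, and the intervals exclude 0 only for Hspb9 on the higher side and for Hspa8, Dnajc5b, Hspb1, Hsph1 and Hspb8 on the lower side.

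Hspa8, the constitutive Hsp70 of the cytosol, had the smallest p of all chaperone windows. Its window (ENSMUSG00000015656, chromosome 9, gene from 40800984 to 40810087) held 111, 150 and 156 CPM in LacZ-shRNA and 105, 99.2 and 106 CPM in Yap-shRNA. All Yap-shRNA values lay under the lowest LacZ-shRNA value, which came from replicate 1 and was only slightly higher. This came to a log2 fold change of -0.42 with an SE of 0.14 (edgeR p 0.00459, adjusted p 0.946), and without LacZ-shRNA replicate 1 the window passed the threshold, as described further on. The window overlaps those of the small nucleolar RNA genes Snord14c, Snord14d and Snord14e within Hspa8. Its promoter peak, counted as 1 region whatever genes lie there, held 173, 203 and 205 CPM in LacZ-shRNA and 152, 152 and 159 CPM in Yap-shRNA, again without overlap (log2 fold change -0.33, SE 0.14, edgeR p 0.0221, adjusted p 0.426).

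The stress-inducible Hsp70 genes Hspa1a and Hspa1b stand next to each other on chromosome 17. The window of Hspa1b was alone and held 20.3, 25 and 31.0 CPM in LacZ-shRNA and 24.2, 24.5 and 25.5 CPM in Yap-shRNA, so that the Yap-shRNA values lay inside the LacZ-shRNA range. That of Hspa1a, which has only 27.3% of its ground to itself beside Hspa1l, held 1.27, 2.88 and 2.28 CPM in LacZ-shRNA and 1.32, 1.12 and 2.20 CPM in Yap-shRNA. Such low counts gave a log2 fold change of -0.44 with an SE of 0.41. The peak over the shared Hspa1a and Hspa1l promoter was well covered, with 46.3, 59.9 and 59.5 CPM in LacZ-shRNA and 43.6, 50.6 and 48.6 CPM in Yap-shRNA. These groups overlapped (log2 fold change -0.21, SE 0.13, edgeR adjusted p 0.673).

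The Hsp70 genes of other compartments had log2 fold changes near 0. Hspa5 (BiP), the Hsp70 of the ER lumen, held 55.4, 60.9 and 66.0 CPM in LacZ-shRNA and 59.6, 60.9 and 60.4 CPM in Yap-shRNA, a log2 fold change of -0.01 (SE 0.13). Hspa9 (mortalin), which pulls proteins into the mitochondrial matrix, held 71.6, 91.3 and 98.8 CPM in LacZ-shRNA and 88.2, 72.2 and 91.0 CPM in Yap-shRNA (log2 fold change -0.06, SE 0.14). Both groups overlapped in each gene. The 11 Hsp70 windows had log2 fold changes from -0.44 to 0.10, 3 above 0 and 8 below, and only Hspa8 had an unadjusted p under 0.05.

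Among partners that reset Hsp70, Hsph1 (Hsp110, an exchange factor and disaggregase partner) was the member whose window and promoter peak both stood apart. Its window (ENSMUSG00000029657, chromosome 5, gene from 149614287 to 149636376) held 74.0, 91.0 and 78.6 CPM in LacZ-shRNA and 61.7, 65.5 and 72.8 CPM in Yap-shRNA. The highest Yap-shRNA value lay just below the lowest LacZ-shRNA value (log2 fold change -0.28, SE 0.13, edgeR p 0.0453, adjusted p 0.946). The promoter peak, from 149635587 to 149637027 on chromosome 5 over the first exon and the heat shock element printed above, held 58.9, 60.7 and 57.2 CPM in LacZ-shRNA. In Yap-shRNA it held 40.4, 45.2 and 45.3 CPM, clear of the control range (log2 fold change -0.43, SE 0.12, edgeR p 0.00103). Its adjusted p of 0.101 was the smallest of all chaperone promoter peaks and did not pass the threshold. The other Hsp110 genes, Hspa4 and Hspa4l, had log2 fold changes of 0.06 and -0.14 (SE 0.13 for both), and Hspbp1, another exchange factor, had -0.01 (SE 0.13).

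**Figure D2:**
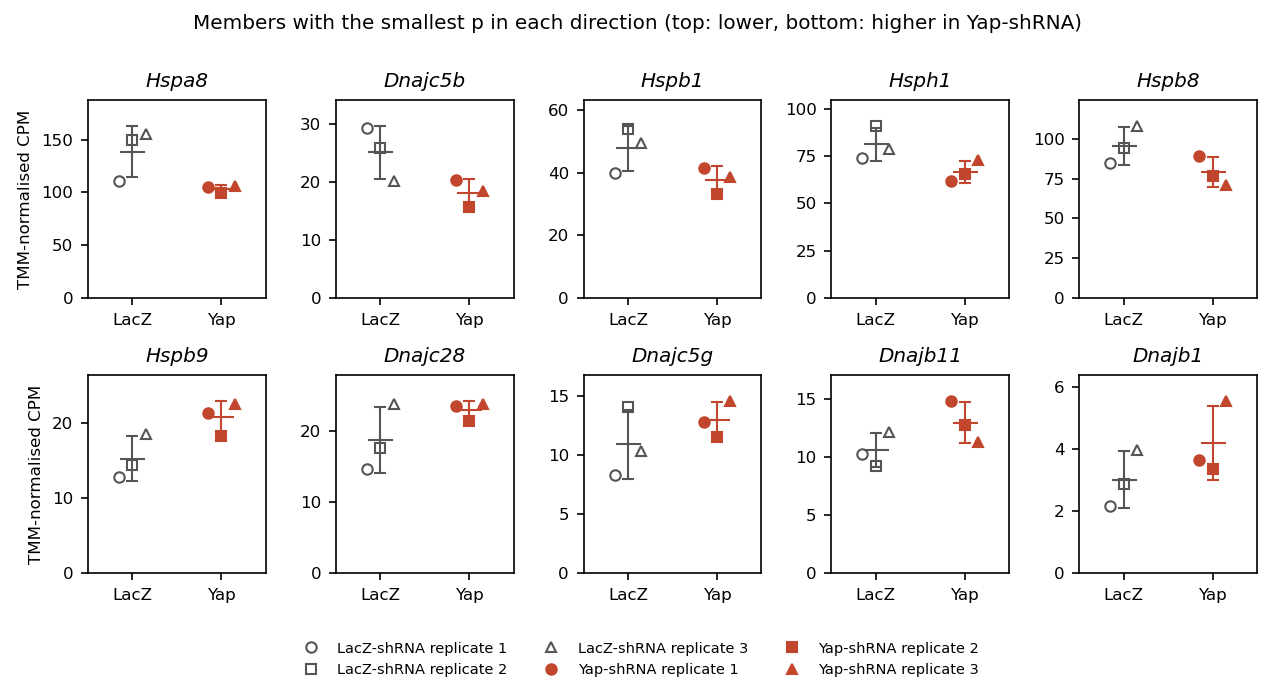
TMM-normalised CPM (y axes, from 0) in each library for the 5 windows with the smallest p among those lower (top) and among those higher (bottom) in Yap-shRNA, with LacZ-shRNA as open and Yap-shRNA as filled symbols and the mean and SD of 3 replicates as bars. Only Hspa8 and Hsph1 show groups that do not overlap.

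The 3 Hsp90 genes all had log2 fold changes below 0, none beyond the replicate spread. Hsp90ab1, the constitutive cytosolic Hsp90, held 100, 128 and 131 CPM in LacZ-shRNA and 109, 102 and 114 CPM in Yap-shRNA (log2 fold change -0.15, SE 0.14). Hsp90aa1, the inducible cytosolic form, held 60.2, 101 and 75.8 CPM in LacZ-shRNA and 71.6, 79.0 and 80.4 CPM in Yap-shRNA (log2 fold change -0.02, SE 0.15). Hsp90b1 (Grp94), the ER form, held 32.0, 34.3 and 32.9 CPM in LacZ-shRNA and 28.9, 32.4 and 30.8 CPM in Yap-shRNA in an overlapping window (log2 fold change -0.10, SE 0.14). Its promoter peak held 76.1, 79.0 and 83.7 CPM in LacZ-shRNA and 76.9, 72.4 and 67.3 CPM in Yap-shRNA (log2 fold change -0.14, SE 0.12). The groups overlapped in each of the 3 genes.

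Hspd1 (Hsp60) and Hspe1 (Hsp10) form the chaperonin of the mitochondrial matrix and are transcribed in opposite directions from a common promoter. Since only 4.86% of the Hspd1 window is its own, that window held 1.81, 2.56 and 1.48 CPM in LacZ-shRNA and 2.04, 2.14 and 1.27 CPM in Yap-shRNA. The peak over both starts is the usable measure, and it held 82.1, 102 and 102 CPM in LacZ-shRNA and 86.9, 95.1 and 85.3 CPM in Yap-shRNA. It is a strong peak whose groups overlapped (log2 fold change -0.10, SE 0.13, edgeR adjusted p 0.909).

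Small heat shock proteins include several that are abundant in muscle. Hspb1 (Hsp25, an actin and desmin chaperone; ENSMUSG00000004951, chromosome 5, 135887919 to 135889563) held 39.8, 53.8 and 49.6 CPM in LacZ-shRNA and 41.3, 33.1 and 38.7 CPM in Yap-shRNA. Its groups overlapped through LacZ-shRNA replicate 1 (log2 fold change -0.33, SE 0.14, edgeR p 0.0236, adjusted p 0.946). Hspb8, which works with Bag3 in clearing damaged filamin (ENSMUSG00000041548, chromosome 5, 116408491 to 116422864), held 84.5, 93.9 and 108 CPM in LacZ-shRNA and 89.2, 76.9 and 70.7 CPM in Yap-shRNA. These groups also overlapped through the same control library (log2 fold change -0.28, SE 0.14, edgeR p 0.0496, adjusted p 0.946). In their promoter peaks the groups did not overlap: Hspb8 held 106 to 117 CPM in LacZ-shRNA and 84.4 to 104 CPM in Yap-shRNA. For Hspb1 the ranges were 68.5 to 77.3 CPM and 58.2 to 66.4 CPM. The log2 fold changes of these peaks were -0.23 and -0.20, with edgeR adjusted p of 0.628 and 0.696.

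Hspb7, a cardiac and skeletal muscle member, held 24.6, 33.0 and 37.1 CPM in LacZ-shRNA and 29.8, 33.6 and 30.8 CPM in Yap-shRNA (log2 fold change -0.01, SE 0.15). Hspb6 (Hsp20) held 15.9, 24.4 and 19.9 CPM in LacZ-shRNA and 20.9, 21.1 and 21.3 CPM in Yap-shRNA in an overlapping window (log2 fold change 0.10, SE 0.16). Neither pair of groups was separated. Hspb9, a member known from testis, was on the other side of 0, with 12.8, 14.4 and 18.6 CPM in LacZ-shRNA and 21.4, 18.3 and 22.6 CPM in Yap-shRNA. Its groups overlapped narrowly, by LacZ-shRNA replicate 3 and Yap-shRNA replicate 2 (log2 fold change 0.41, SE 0.17, edgeR p 0.019, adjusted p 0.946). Hspb9 shares part of its window with Kat2a and had no called promoter peak.

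DnaJ proteins bring clients to Hsp70 and stimulate its ATPase, and the A and B classes are the general ones. Dnajb5, a class B J-protein described in the heart (ENSMUSG00000036052, chromosome 4, 42949814 to 42959425), held 156, 199 and 213 CPM in LacZ-shRNA and 181, 147 and 138 CPM in Yap-shRNA. LacZ-shRNA replicate 1 lay within the Yap-shRNA range (log2 fold change -0.29, SE 0.15, edgeR p 0.0591, adjusted p 0.946), and without that library the window passed the threshold. Dnajb6, whose variants cause a muscular dystrophy, held 41.2, 45.8 and 46.0 CPM in LacZ-shRNA and 43.8, 39.7 and 48.9 CPM in Yap-shRNA. Its log2 fold change was -0.01 (SE 0.14), with every Yap-shRNA value close to the controls. Dnajb1 (Hsp40), the partner of inducible Hsp70, held 2.17, 2.88 and 3.99 CPM in LacZ-shRNA and 3.67, 3.35 and 5.56 CPM in Yap-shRNA. In that low and overlapping window the log2 fold change was 0.41 (SE 0.32), while in its promoter peak, with 67.9, 77.7 and 87.6 CPM against 67.8, 75 and 70.6 CPM, it was -0.14 (SE 0.12). The 2 measures of Dnajb1 thus had different signs, neither of them past a threshold. Dnaja1, a farnesylated J-protein of the cytosol, held 8.14, 11.9 and 7.18 CPM in LacZ-shRNA and 6.11, 8.94 and 9.39 CPM in Yap-shRNA (log2 fold change -0.08, SE 0.23). Only 35.4% of the Dnaja1 window is its own, and its promoter peak held 54.5, 69.6 and 75.6 CPM against 51.7, 62.3 and 61.2 CPM (log2 fold change -0.20, SE 0.13). Dnajb11 (ERdj3), a J-protein of the ER, held 10.3, 9.29 and 12.2 CPM in LacZ-shRNA and 14.9, 12.8 and 11.4 CPM in Yap-shRNA (log2 fold change 0.26, SE 0.18). That window also overlaps a neighbour, and the promoter peak of Dnajb11, with 51.8, 33.5 and 42.9 CPM against 40.9, 37.9 and 39.0 CPM, had a log2 fold change on the other side of 0, at -0.14 (SE 0.13). The groups of all these genes overlapped. Of the 4 Dnaja windows 1 had a log2 fold change above 0 and 3 below, and of the 12 Dnajb windows 6 lay on each side, with 0 at an unadjusted p under 0.05 in either class.

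The C class holds specialised J-proteins, from ER sensors to clathrin uncoating factors. Dnajc5b, a cysteine-string protein known mainly from testis (ENSMUSG00000027606, chromosome 3, 19508595 to 19610862), held 29.3, 26.0 and 20.3 CPM in LacZ-shRNA and 20.5, 15.7 and 18.4 CPM in Yap-shRNA. The ranges met only at LacZ-shRNA replicate 3 and Yap-shRNA replicate 1 (log2 fold change -0.45, SE 0.16, edgeR p 0.00832, adjusted p 0.946). Its relative Dnajc5g had a log2 fold change above 0 that passed no threshold, with 8.32, 14.1 and 10.4 CPM in LacZ-shRNA and 12.8, 11.5 and 14.6 CPM in Yap-shRNA (log2 fold change 0.29, SE 0.19). Dnajc28 held 14.7, 17.6 and 23.8 CPM in LacZ-shRNA and 23.5, 21.3 and 23.8 CPM in Yap-shRNA (log2 fold change 0.26, SE 0.16). Only the highest LacZ-shRNA value reached the Yap-shRNA range in Dnajc28. Dnajc3 (p58IPK), a cochaperone of Hspa5 and inhibitor of the kinase PERK, held 56.1, 48.4 and 60.4 CPM in LacZ-shRNA and 52.3, 48.2 and 46.6 CPM in Yap-shRNA (log2 fold change -0.18, SE 0.13). Dnajc24, which takes part in diphthamide synthesis, held 4.70, 5.45 and 3.19 CPM in LacZ-shRNA and 3.67, 4.00 and 2.43 CPM in Yap-shRNA (log2 fold change -0.31, SE 0.32). Its window is an overlapping one, and its promoter peak, with 12.6, 10.6 and 12.8 CPM against 12.7, 13.1 and 14.6 CPM, had a log2 fold change of 0.13 (SE 0.19). The groups of these C-class genes overlapped as well. Of the 27 Dnajc windows 14 had log2 fold changes above 0 and 13 below, and the 95% interval stayed within 1.5-fold for 23.

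Most chaperone promoters carried a called peak of accessible chromatin. A peak within 1 kb of a transcript start was listed for 59 of the 69 genes (85.5%), against 51.8% of the 20540 protein-coding genes with a window. The 65 distinct peaks were 508 to 3870 bp wide, with a median of 1412 bp, and 62 of them covered an annotated start. Their level in LacZ-shRNA ran from 17.5 CPM per kb (Dnajc24) to 66.0 CPM per kb (Hspa8), with a median of 31.0. At 22 of the 65 the start of another gene also lay within reach, as at Hspd1 with Hspe1 or Dnajb1 with Tecr.

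Counts in these peaks gave no called difference either. Of the 65 promoter peaks 0 passed the threshold in edgeR's test over all peaks, where 0.618% of the 36097 peaks passed. At an unadjusted p under 0.05 there were 2 higher (Dnajc8 and Dnajc15) and 2 lower (Hsph1 and Hspa8), against 3.59% of all peaks higher and 5.31% lower, and 4.38% and 3.24% of the 12725 promoter peaks of all genes, of which 0.338% passed the threshold. Dnajc8, a splicing-associated J-protein, had the smallest p on the higher side, with 13.4, 25.9 and 19.9 CPM in LacZ-shRNA and 23.3, 27.1 and 27.1 CPM in Yap-shRNA. Its groups overlapped through LacZ-shRNA replicate 2 (log2 fold change 0.42, SE 0.17, edgeR p 0.0159, adjusted p 0.382). Log2 fold changes were above 0 in 24 peaks and below 0 in 41, with a median of -0.05 against 0.02 over the promoter peaks of all genes. This split changed with the library left out and vanished without LacZ-shRNA replicate 3, with 33 above 0 and 32 below. Without LacZ-shRNA replicate 1 there were 18 above and 47 below. Leaving out any other library gave 21 to 26 above and 39 to 44 below. Groups did not overlap in 2 peaks higher and 5 lower, beside 6.55% of all peaks higher and 6.76% lower. For 60 of the 65 the 95% interval stayed within a 1.5-fold change.

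Another 20 peaks lay inside the genes, away from the starts, and 0 of them passed the threshold in edgeR's test. The only one with an unadjusted p under 0.05 was a peak over exons of Hspa8 (chromosome 9, 40806302 to 40809992), which held 83.2, 115 and 114 CPM in LacZ-shRNA and 59.3, 88.5 and 97.4 CPM in Yap-shRNA. Its groups overlapped, and the log2 fold change was -0.35 (SE 0.15, edgeR p 0.0204, adjusted p 0.412). On the higher side the smallest p belonged to an intronic peak of Dnajc18, with 41.1, 30.1 and 36.2 CPM in LacZ-shRNA and 42.9, 44.9 and 42.2 CPM in Yap-shRNA. There the groups were apart (log2 fold change 0.26, SE 0.13, edgeR p 0.0549, adjusted p 0.58).

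The contrast between windows and peaks showed where the windows can be read. Of the 59 genes with both, the log2 fold changes of window and strongest promoter peak had the same sign in 42. Since both count in part the same reads, shared signs are not independent results. Hspa1a and Hspa1l also share a peak and are both among the 59. Window CPM were scaled to the total over all windows and peak CPM to that over all peaks, so their ratios are not ratios of reads. They cannot be set against the ratios of counts given further above. In the 31 windows that were alone and had a promoter peak, the LacZ-shRNA window held between 0.548 and 2.25 times the CPM of its strongest promoter peak, with a median of 1.04. In the 28 overlapping windows the median was 0.447 and the lowest value 0.0204, for Hspd1. Dnajb1 followed with 3.01 ± 0.915 CPM in the window against 77.8 ± 9.87 CPM in the peak (mean ± SD, n = 3). For Hspa1a these values were 2.14 ± 0.817 and 55.2 ± 7.75 CPM, and for Hspa2, an Hsp70 known from testis, 4.90 ± 2.18 and 63.2 ± 8.11 CPM. Hspb6 had 20.1 ± 4.22 CPM in the window and 145 ± 9.93 CPM in a broad peak that also covers starts of Lin37 and Proser3. Low window counts of these genes thus stood beside well covered promoter peaks.

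**Figure D3:**
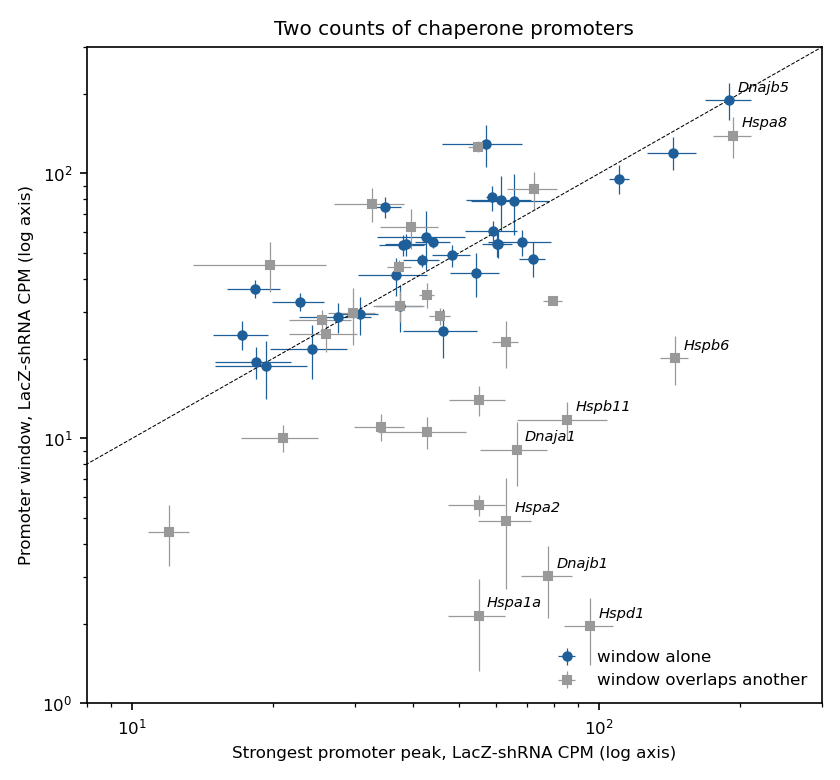
Mean CPM of each promoter window (y axis, log scale) against that of its strongest promoter peak (x axis, log scale) in the 3 LacZ-shRNA replicates, with SD as bars and the line of equal CPM dashed. Windows and peaks were scaled to separate totals, so that line does not stand for equal reads. Windows that were alone (circles) follow the line, and overlapping windows (squares) reach down to 0.0204 times the peak, at Hspd1.

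Levels between genes were compared per kb and among windows that were alone. In LacZ-shRNA the 38 such chaperone windows had a median of 10.4 CPM per kb, against 4.77 over all 39022 windows that were alone. Protein-coding windows that were alone and had a promoter peak, the closer comparison, had a median of 9.27 (n = 6237). The chaperone median, however, includes 7 windows without a promoter peak. Dnajb5 was the most accessible, at 40.9 ± 6.49 CPM per kb (SD, n = 3), followed by Dnajc3 at 27.5 ± 3.04, Hspb8 at 23.9 ± 2.97, Hspb1 at 22.7 ± 3.42, Hsp90ab1 at 21.6 ± 3.09 and Dnajb12 at 20.3 ± 3.78. Hspa8 had 25.9 ± 4.56 CPM per kb in its overlapping window. At the low end stood Dnajb7 (4.28 ± 0.731), known from testis, and Dnajc10 (4.59 ± 0.349), an ER disulphide reductase. Over all 69 windows the lowest were Hspd1, Hspa1a and Dnajc24 with 0.879, 1.07 and 1.26 CPM per kb, all of them overlapping windows. Neighbours in the order of the 38 overlapped in their replicate ranges in 35 of 37 cases, and only Dnajb5 over Dnajc3 and Hspa12b over Hspa4l were apart. The highest level was 9.56 times the lowest.

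**Figure D4:**
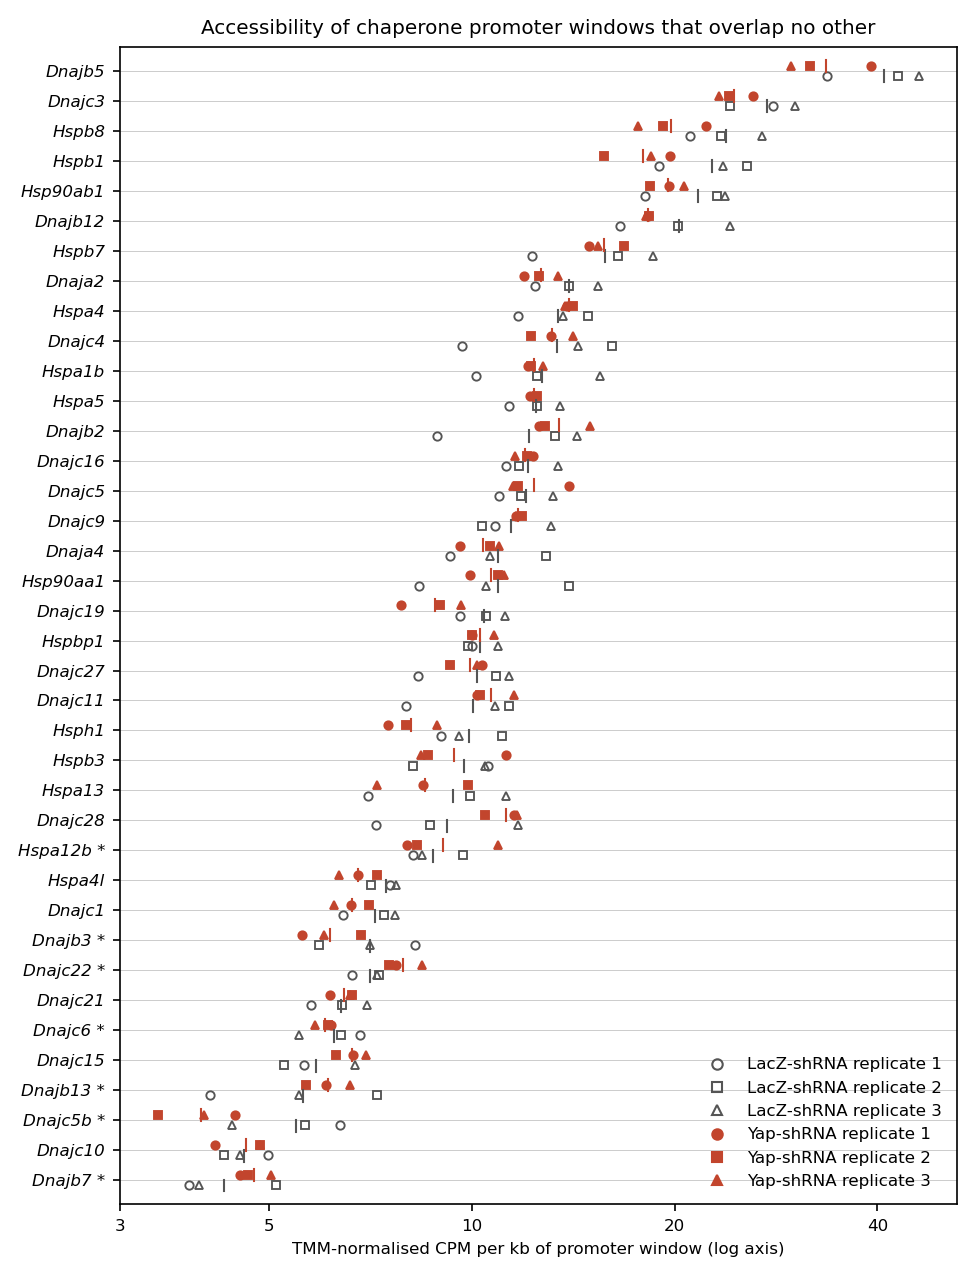
Level of the 38 chaperone windows that were alone, in TMM-normalised CPM per kb (x axis, log scale), ordered by the LacZ-shRNA mean, with LacZ-shRNA replicates as open and Yap-shRNA replicates as filled symbols and group means as vertical ticks. Dnajb5 leads with a LacZ-shRNA mean of 40.9 CPM per kb. Asterisks mark the 7 genes without a called promoter peak, whose LacZ-shRNA means all lie under 9 CPM per kb.

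The 10 genes without a called promoter peak were Dnajb3, Dnajb7, Dnajb8, Dnajb13, Dnajc5b, Dnajc5g, Dnajc6, Dnajc22, Hspa12b and Hspb9. Several of these are known from testis (Dnajb3, Dnajb7, Dnajb8, Dnajb13, Dnajc5b, Dnajc5g and Hspb9), and Dnajc6 (auxilin) from neurons. In LacZ-shRNA the 7 whose windows were alone ran from 4.28 (Dnajb7) to 8.76 CPM per kb (Hspa12b). This is under the 8.94 CPM per kb that marks the 95th percentile of the 8401 protein-coding windows that were alone and had no promoter peak. Dnajc5g (2.72), Dnajb8 (4.07) and Hspb9 (7.37 CPM per kb) had overlapping windows, whose levels are uncertain. A missing peak does not by itself mark closed chromatin, since 7 of the 12 muscle-fibre markers, among them Ckm at 44.3 and Tnni2 at 58.3 CPM per kb, also had no listed promoter peak. The most extreme log2 fold changes on both sides of 0, those of Dnajc5b and Hspb9, belonged to genes of this kind.

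LacZ-shRNA replicate 1 stood apart from the other control libraries at the chaperone genes. It was the lowest of the 3 controls in 51 of 69 windows (73.9%), against 37.7% of all windows and 68.9% of windows with a promoter peak. Relative to the mean of all 6 libraries its median deviation over the 69 windows was -0.16 on the log2 scale, against 0.08 and 0.11 in the other 2 controls. Medians of the Yap-shRNA libraries lay at -0.01, -0.02 and 0.02, between the controls. Without LacZ-shRNA replicate 1, 2 chaperone windows passed the threshold, both lower, while 0.308% of all windows passed and were lower. Hspa8 had then a log2 fold change of -0.57 with an SE of 0.09 (edgeR adjusted p 0.000131), and Dnajb5 one of -0.42 with an SE of 0.10 (edgeR adjusted p 0.0254). At an unadjusted p under 0.05 there were 11 chaperone windows lower and 0 higher, beside 4.27% of all windows lower and 2.64% higher, and the median log2 fold change of the 69 was -0.09 against 0.0036 over all windows. A promoter peak was held by 26.3% of all windows, against 85.5% of the chaperone windows. Shares among only the windows with a peak were not counted in this fit. In the promoter peaks 0 passed in the same fit. Which control library is the better measure was not tested.

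**Figure D5:**
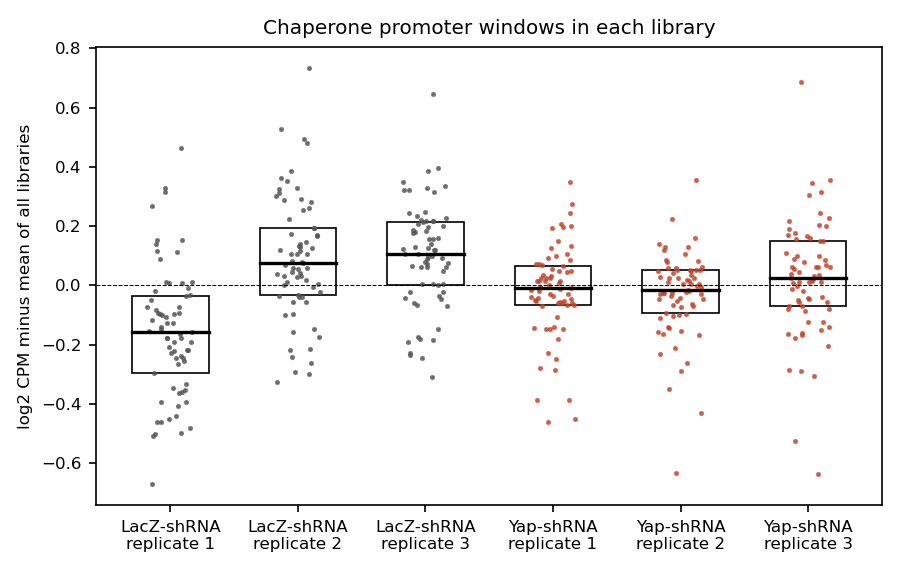
Log2 CPM of each of the 69 chaperone windows minus the mean of all libraries (y axis) in the 6 libraries (x axis), with the quartiles as a box and the median as a thick line. LacZ-shRNA replicate 1 has a median of -0.16, below all the others, and the Yap-shRNA libraries lie between it and the remaining controls.

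Partner and regulator genes of the chaperones were read in the same way. Of 63 genes in lists of heat shock factors, Hsp90 cochaperones, exchange factors, the CCT chaperonin with prefoldin, related chaperones under other symbols and stress factors, 58 could be measured by window. In edgeR's test 0 of these were called, and at an unadjusted p under 0.05 there were also 0. The smallest p on the higher side belonged to Ahsa1, the activator of the Hsp90 ATPase, with a log2 fold change of 0.34 (SE 0.19), and to the chaperonin subunit Cct7 with 0.26 (SE 0.16). On the lower side it belonged to the prefoldin subunit Pfdn2 with -0.24 (SE 0.17) and to Unc45b, the myosin chaperone of muscle, with -0.18 (SE 0.13). The median over the 5 heat shock factor windows was 0.06, and over the 20 Hsp90 cochaperones it was -0.02.

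Genes that carried the printed elements were read beside the rest. The 3 genes with a 3-unit heat shock element had log2 fold changes from -0.28 (Hsph1) to 0.02 (Hspd1), and the 15 with a 2-unit site had a median of -0.06, with 4 above 0 and 11 below. Members without the 2-unit site had a median of -0.01. The 3 genes with the ER stress element had log2 fold changes between -0.18 and -0.01, and the genes with the TEAD motif had values on either side of 0, Dnajb5 at -0.29 and Dnajc7 at 0.17. None of these windows was called in edgeR's test, and Hsph1 was the only one of the 3-unit genes with an unadjusted p under 0.05. Hsph1 counts again among the 15 genes with a 2-unit site, of which 3 had such a p: Hspb1, Hspb8 and Hsph1. All 3 were lower in Yap-shRNA. At that threshold 5 of the 69 chaperone windows, these 3 among them, and 3.01% of all windows were lower. Whether the site goes with a lower window was not tested.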

How the data were processed

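ATAC-seq was performed on PCM1-positive myonuclei, with 3 LacZ-shRNA and 3 Yap-shRNA pools grouped by their labels. Per the labels and the methods, the authors mapped reads to GRCm38 with BWA 0.7.17, used SAMtools 1.8 to remove duplicates and MACS 1.4.2-1 to call peaks, kept peaks found in at least 2 samples and counted reads with featureCounts 1.5.0. The deposited values are raw read counts over 36097 peaks and 49366 promoter windows. The lowest mean count of a window was 10. Replicates differed by more than sampling noise (chi-square per window 1.95 to 5.37). A minimum mapping quality for these tables is not given in the sources used here.

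The groups were compared by edgeR's quasi-likelihood test (edgeR 4.0.16, R 4.3.3), two-sided, on TMM-scaled counts, with Benjamini-Hochberg adjustment over each whole table at 0.05. All windows matched GENCODE vM21 by identifier. The scripts were tested on simulated data. Other settings tried were DESeq2 1.42.0, the likelihood-ratio test, RLE factors, library size alone, a mean count of at least 50, a replicate block, windows that were alone, and leaving out each replicate. The genes, lists and naming rule were chosen with earlier results of these data known. Named genes were the 5 with the smallest p in each direction, fixed representatives of each family, and the 3 highest and 3 lowest levels per kb. Other genes named in the text were singled out after their values were seen.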

Additional observations from a re-analysis of the deposited data

How the results depend on the processing

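Across 12 other settings, 296 values of 25 named windows were recomputed, and 266 kept both direction and side of the threshold, 28 changed sign and 2 were newly called. The 2 were Hspa8 and Dnajb5 without LacZ-shRNA replicate 1, and 16 of the 25 genes never changed sign. With library size alone, signs turned for Dnajb6 (0.051), Hsp90aa1 (0.055), Hspa5 (0.048), Hspb7 (0.049), Hspa1b (0.0021) and Hspa9 (0.0023), and the median of the 69 windows became 0.045, that of all windows 0.046. The replicate block gave 0.00056 for Hspb7 and -0.091 for Hspd1, and DESeq2 gave -0.031 for Hspd1. The cause was not tested.

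Leaving out each replicate in turn, the log2 fold change ran from -0.25 to 0.10 for Dnaja1, -0.088 to 0.063 for Dnajb6, -0.16 to 0.17 for Hsp90aa1, -0.22 to 0.15 for Hspa1b, -0.087 to 0.058 for Hspa5, -0.20 to 0.050 for Hspa9, -0.029 to 0.22 for Hspb6, -0.18 to 0.16 for Hspb7 and -0.19 to 0.20 for Hspd1. The count of chaperone windows past the threshold ran from 0 to 2 and that at an unadjusted p under 0.05 from 2, without Yap-shRNA replicate 2, up to 11 when LacZ-shRNA replicate 1 was left out. Over all windows the count ran from 4 to 157 and over all peaks from 94 to 447. For chaperone promoter peaks at an unadjusted p under 0.05 it ran from 2, again without Yap-shRNA replicate 2, up to 7 when LacZ-shRNA replicate 3 was left out. Shares of all peaks at an unadjusted p under 0.05 were counted in the main fit alone. Those of all windows were counted there and without LacZ-shRNA replicate 1. Other counts of this kind, here and below, have no such share beside them and cannot be set against the background.

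All windows past the threshold numbered 33 with the likelihood-ratio test and 20 with DESeq2, and all peaks 378, 116 and, at a mean count of at least 50, 136. With library size alone the 223 called peaks, 17 of them higher and 206 lower, became 124 higher and 105 lower. In that setting, over all peaks the median shifted to a log2 fold change of 0.14 and for the chaperone promoter peaks to 0.096 (50 above 0 and 15 below). Against the median of all peaks the chaperone promoter peaks lay 0.041 lower with library size alone and 0.043 lower with TMM. That gap depended on single libraries: it grew to 0.11 without LacZ-shRNA replicate 1 and 0.087 without Yap-shRNA replicate 2, shrank to between 0.022 and 0.026 without LacZ-shRNA replicate 2, Yap-shRNA replicate 1 or Yap-shRNA replicate 3, and turned to -0.016 without LacZ-shRNA replicate 3. Chaperone promoter peaks at an unadjusted p under 0.05 numbered 2 with DESeq2 and 2 with the replicate block, against 4, and 0 passed the threshold in any setting. Same-numbered samples did not deviate together (window correlations 0.19, -0.12 and 0.09), so the numbers were not taken as pairs. The labels do not say which pools came from the same mice, although the hairpins went to opposite limbs. These correlations cannot decide it, and the main test treated the pools as unpaired. The block changed no call at a chaperone gene.

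The median SE of the 69 log2 fold changes was 0.146, and up to 0.407 in overlapping windows, so true differences could go uncalled. Even the extremes, -0.45 for Dnajc5b and 0.41 for Hspb9, had an edgeR adjusted p of 0.946. The smallest difference that could be called was not tested. Without LacZ-shRNA replicate 1 the SE went from 0.141 to 0.0948 for Hspa8 and from 0.147 to 0.0975 for Dnajb5.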
